A study of Mus musculus with 3 samples.

Results

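The comparison set the hippocampus of a PS19 mouse line with lowered Zbp1 dosage (PS19 Zbp1+/-) against wild type (WT), and asked what remained apart from WT when the tau transgene was present with less Zbp1. Its members were the autosomal protein-coding genes with an FPKM (fragments per kilobase of a gene, relative to the size of the library) of at least 1 in either library. They numbered 11992 of the 54532 genes measured, out of 20825 autosomal protein-coding genes. Each difference is that of log2(FPKM + 1), PS19 Zbp1+/- minus WT, which understates the change of genes with low values. The study sequenced total RNA from hippocampus at 10 months of age in 3 libraries, 1 of each genotype, all on a C57BL/6 background: WT, PS19, and PS19 with a Zbp1 allele missing. The labels give no sex, no number of pooled animals and no batch. The PS19 Zbp1+/- library differed from WT in both the transgene and Zbp1, and the 2 cannot be told apart in this comparison. With 1 library per genotype no difference has a replicate check and no p-value was computed, and every interval covers counting error only. Where 3 values follow each other they are those of WT, PS19 and PS19 Zbp1+/-, in this order; PS19 minus WT uses the same WT library and is set beside the comparison without a test.

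PS19 mice express human mutant tau from a transgene under the mouse Prnp promoter, which is active mainly in neurons, and they develop tau aggregates, gliosis and loss of hippocampal neurons with age. Zbp1 is a sensor that binds nucleic acids in the left-handed Z conformation, is itself induced by interferon, and can signal through Ripk3 to Mlkl, the executor of necroptosis. The hippocampus borders the lateral ventricle, so a dissection can carry along choroid plexus (the epithelium that makes cerebrospinal fluid), the ciliated ependyma that lines the ventricle, and meninges.

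Zbp1 (ENSMUSG00000027514, GRCm38 chromosome 2, 173206612 to 173218923) lay under the FPKM minimum and was not a member. It had 5 (WT), 91 (PS19) and 0 (PS19 Zbp1+/-) reads. The interval of the ratio of PS19 Zbp1+/- to WT reached 1.19, so a difference from WT was not detectable at this depth. Mapt, the mouse tau gene, stood at an FPKM of 63.0 (WT), 65.1 (PS19) and 65.3 (PS19 Zbp1+/-). Prnp, whose promoter drives the transgene, stood at 405, 659 and 512 in the same order.

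The libraries differed in ways that touch the whole comparison. Recovered reads summed to 16746085 in WT and 17109734 in PS19 Zbp1+/-, yet 24741 genes had a read in WT and 21408 in PS19 Zbp1+/-. The deposited FPKM implied library sizes of 17253479 and 15826984, so in PS19 Zbp1+/- the recovered reads exceeded the size, unlike in WT. Of 1310 genes with 8 to 12 reads in WT, 234 (17.9%, exact 95% interval 15.8 to 20.05%) had 0 reads in PS19 Zbp1+/-, against 26 (1.98%, 1.30 to 2.89%) in PS19. Xist, the X-inactivation RNA, had 11062 (WT), 13350 (PS19) and 0 (PS19 Zbp1+/-) reads, whereas the Y-linked Ddx3y had 0, 0 and 711. Genotype therefore cannot be told apart from sex, from the loss of weakly expressed genes or from the dissection. The defining markers of hippocampal excitatory neurons were present in each library, with a summed FPKM over 6 genes of 722 (WT), 653 (PS19) and 950 (PS19 Zbp1+/-). The higher sum came from Camk2a (346, 348 and 458) and Slc17a7 (206, 172 and 371), while Bok, Neurod6, Prox1 and Wfs1 were each below WT, Bok at 53.3, 44.8 and 29.7.

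Most genes stood close to WT. The median difference over all members was 0.01 log2 units, and 10305 genes (85.9%) lay within 1.5-fold. At 2-fold on this scale 120 genes were higher (1.0% of those tested) and 273 were lower (2.28%). At 1.5-fold 816 were higher (6.80%) and 871 lower (7.26%). Genes of the choroid plexus, ciliated ependyma and meninges supplied 50 of the 273 lower genes. Without these lists 1.87% of the remaining 11925 members were lower, beside 2.28% of all members. Part of the 50 was fixed by the FPKM minimum. It was reached in WT alone by 20 of 30 plexus, 8 of 18 cilia and 6 of 19 meningeal genes, which could only be lower. Near-identical copies elsewhere in the genome, between which reads can be split, were found for 45 lower and 15 higher genes, out of 1707 members that have one. The split moved with the scaling: 30.5% of the called genes were higher as deposited, 17.8% after rescaling to TPM and 15.9% with scaling by total reads, which shifted the median of all genes to -0.15 and -0.12. It also moved with the level, to 52.9% higher among genes with a mean FPKM of at least 5.

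**Figure D1:**
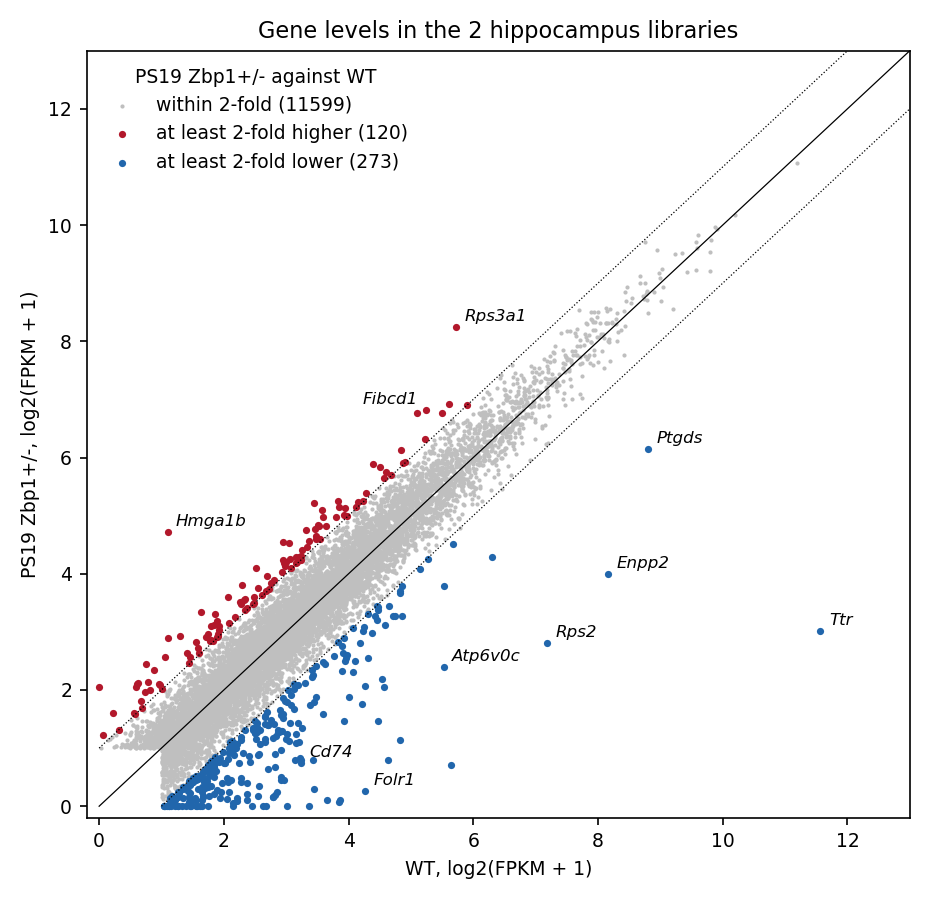
Each point is 1 of the 11992 genes, with its log2(FPKM + 1) in WT on the horizontal axis and in PS19 Zbp1+/- on the vertical axis; the solid line marks equal levels and the dotted lines a 2-fold difference. Of the 120 higher genes (red) 3 are at least 4-fold above WT, Hmga1b and Rps3a1 among them. Of the 273 lower genes (blue) 51 are at least 4-fold below WT, with Ttr farthest away.

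The choroid plexus list held 11 of the 12 largest decreases among genes with at least 50 reads. Ttr (GRCm38 chromosome 18, 20665250 to 20674324), which encodes the thyroid hormone carrier transthyretin and is the most abundant plexus transcript, had an FPKM of 3036 (WT), 1842 (PS19) and 7.05 (PS19 Zbp1+/-). The PS19 Zbp1+/- library stood apart from both others, with a ratio to WT of 0.00232 (95% interval 0.00195 to 0.00275) from 136 against 63846 reads. Enpp2, the secreted lysophospholipase autotaxin, was at 286, 257 and 15.0. Folr1, a folate receptor of the plexus epithelium, was at 18.2, 10.9 and 0.193. The potassium channel gene Kcnj13 had 294 (WT), 251 (PS19) and 1 (PS19 Zbp1+/-) reads, a ratio to WT of 0.00371 (9.36e-05 to 0.0208). Aqp1, the water channel of the apical plexus membrane, was at 11.5, 8.01 and 0.0722. In each of these genes WT and PS19 were the close pair.

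Of 33 plexus genes listed, 30 passed the FPKM filter; 10 were at 1 or more in both libraries, and the other 20 passed through WT alone, so that they could only be lower. 27 of the 30 were at least 2-fold lower and 0 were higher, beside 2.28% and 1.0% of all genes. Their median difference was -2.46, against -0.17 for PS19 minus WT, and it lay between -4.76 and -2.45 under the 14 alternatives for lists. The 3 plexus genes that missed the 2-fold line included Ezr, a linker of membrane to actin that other cells also express, at 25.9, 30.7 and 17.6. The summed FPKM of the passing genes was 3725 (WT), 2431 (PS19) and 84.3 (PS19 Zbp1+/-). In bulk tissue, fewer cells of a type and less RNA per cell cannot be told apart, and whether the plexus was present in this dissection was not tested.

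Genes of motile cilia, which the ependyma uses to move cerebrospinal fluid, were lower as well. Foxj1, the master transcription factor of motile cilia, stood at an FPKM of 9.37 (WT), 11.8 (PS19) and 2.34 (PS19 Zbp1+/-). Tmem212, an ependymal marker, was at 8.18, 5.82 and 1.15. Ccdc153 was at 4.87, 2.67 and 0.838, so PS19 lay between the others for both genes. Of 31 listed genes 18 passed the filter, 8 of them through WT alone, and 12 were 2-fold lower with 0 higher, beside 2.28% and 1.0% of all genes. Their median was -1.24 (PS19 minus WT -0.26) and -0.68 without the filter. Ccno, which promotes the amplification of centrioles, was the exception with an interval above 1, at 57 reads in WT and 80 in PS19 Zbp1+/-.

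The meningeal and fibroblast genes divided. Fmod, a small proteoglycan of the extracellular matrix, stood at 5.50, 6.84 and 0.554 in WT, PS19 and PS19 Zbp1+/-. Mgp, which inhibits calcification, was at 16.2, 12.4 and 4.68, and the retinoic acid synthesis gene Aldh1a2 at 4.92, 3.86 and 0.865. In contrast Dcn, the proteoglycan decorin, was at 11.3, 4.70 and 20.7, and Nov at 53.1, 19.8 and 90.9. Dcn and Nov are also on the list of CA1 neuron markers. Of 25 listed genes 19 passed, 6 of them through WT alone, which could only be lower. Of the 19, 11 were 2-fold lower and 0 higher, beside 2.28% and 1.0% of all genes. Their median was -1.10, -0.77 without the filter and 0.36 among genes with a mean FPKM of at least 5. By read ratios, 14 of the 19 had an interval below 1 and 5 (Fbln1, Col6a1, Col6a2, Nov and Dcn) above 1. Ptgds, prostaglandin D synthase of meninges and oligodendrocytes and a gene named after its values were seen, was at 447, 342 and 70.0.

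**Figure D2:**
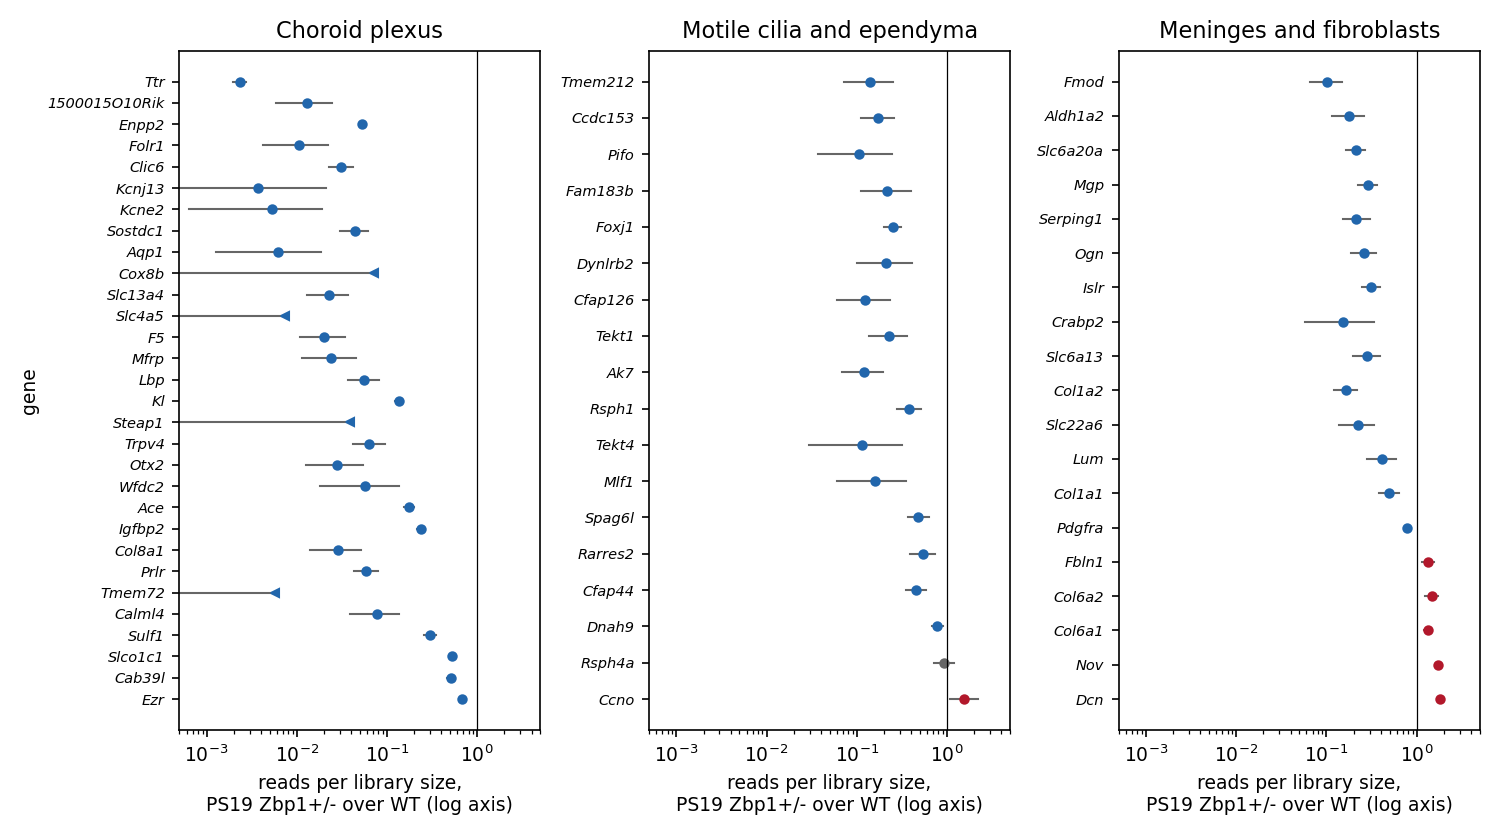
Ratio of reads per library size, PS19 Zbp1+/- over WT, on a log axis for each gene of 3 lists; points are ratios, lines exact 95% intervals cut at the left edge, and triangles the upper limits of genes with 0 reads in PS19 Zbp1+/-. All 30 plexus genes lie below 1 (median ratio 0.0297), as do 16 of 18 cilia genes, while 5 of 19 meningeal genes lie above 1 (red; grey is an interval that holds 1).

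Other vascular and blood genes did not share this pattern evenly. The beta-globin gene Hbb-bs had 112 (WT), 83 (PS19) and 9 (PS19 Zbp1+/-) reads, and the alpha-globin gene Hba-a1 had 103, 94 and 22; both have near-identical copies. Of 10 blood genes 5 passed, 3 of them through WT alone, and 3 were 2-fold lower, beside 2.28% of all genes. The median was -1.03, -0.58 without the filter and -0.31 without genes that have a copy. For endothelium and the blood-brain barrier the median of 24 passing genes was 0.00, with 1 gene 2-fold lower, beside 2.28% of all genes. The lower gene was Ocln, a tight junction protein, at 4.76, 3.69 and 1.71. Cldn5, the main endothelial claudin, was at 22.4 (WT), 19.1 (PS19) and 38.1 (PS19 Zbp1+/-). Pericyte and smooth muscle genes had a median of 0.19 over 13 passing genes, with 0 past 2-fold in either direction.

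Among MHC class II genes, which present antigen on microglia, border macrophages and other immune cells, 5 stood 2-fold below WT in PS19 Zbp1+/-. Of these 5, Cd74, H2-Aa, H2-Ab1 and H2-Eb1 were above WT in PS19, and H2-DMb1 had 55, 54 and 5 reads. Cd74, the invariant chain of class II, stood at an FPKM of 8.39 (WT), 125 (PS19) and 0.672 (PS19 Zbp1+/-). H2-Aa had 63 (WT), 553 (PS19) and 0 (PS19 Zbp1+/-) reads, and the interval of its ratio to WT reached 0.0657. H2-Ab1 had 43, 333 and 0 reads, with an interval up to 0.0976. H2-Eb1 had 74, 367 and 2 reads, a ratio to WT of 0.0295 (0.0035 to 0.110). Of the 10 listed genes, 6 passed the filter, 5 of them through WT alone. Those 5 were the ones 2-fold lower, beside 2.28% of all genes. H2-DMa, a peptide exchange subunit and the sole gene at FPKM 1 or more in both, was close in all libraries at 8.41, 8.64 and 7.55. Ciita, the class II transactivator, was under the filter with 36, 68 and 48 reads. Also under it were H2-Ob with 10, 34 and 12 reads, H2-Oa with 1, 25 and 1, and H2-DMb2 with 6, 22 and 0. The class II list had a median of -1.47, against 2.19 for PS19 minus WT. It rests on those 5 genes, and was -0.80 without the filter, -0.14 at a mean FPKM of at least 5 and between -3.74 and -0.14 under the 14 alternatives.

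Among MHC class I genes, H2-K1 and H2-D1 (classical heavy chains, each with near-identical copies) were 2-fold lower. H2-K1 was at 15.8 (WT), 32.5 (PS19) and 3.97 (PS19 Zbp1+/-), and H2-D1 at 18.8, 40.6 and 4.88. H2-T23, a non-classical class I chain without such a copy, followed at 3.61, 9.85 and 1.09. Psmb8, an immunoproteasome subunit, had 55, 164 and 16 reads. Tapbpl, which edits the peptides loaded on class I, differed in the other direction at 2.05, 2.73 and 3.65. Of 20 passing genes, 3 of them through WT alone and 1 through PS19 Zbp1+/- alone, 3 were 2-fold lower and 0 higher, beside 2.28% and 1.0% of all genes. The median was -0.21 (PS19 minus WT 0.52).

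Interferon-stimulated genes were near or below WT. Ifitm3, which blocks virus entry and has a near-identical copy, stood at 17.2 (WT), 48.1 (PS19) and 5.96 (PS19 Zbp1+/-). Bst2 (tetherin) was at 7.70, 22.6 and 3.29, and Lgals3bp at 11.3, 35.9 and 4.48. Xaf1, an apoptosis-promoting interferon target, was at 2.53, 3.21 and 0.485, so here WT and PS19 were the close pair. Other genes of the group lay within 1.5-fold of WT, such as the transcription factor gene Stat2 at 4.37, 7.72 and 5.14. Isg15, a ubiquitin-like modifier with a near-identical copy, had 25, 155 and 31 reads, and its ratio to WT of 1.35 (0.772 to 2.39) left no detectable difference. Ifit1, under the filter, had 39, 400 and 5 reads. Of 60 listed genes 31 passed, 8 of them through WT alone and 3 through PS19 Zbp1+/- alone, which fixed the direction of those 11. In all 4 were 2-fold lower and 0 higher, beside 2.28% and 1.0% of all genes. The median was -0.27 (PS19 minus WT 1.17) and -0.96 among genes with a mean FPKM of at least 5. At 1.5-fold 10 were lower and 0 higher, beside 7.26% and 6.80% of all genes.

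The following 5 promoters of interferon-regulated genes are shown because they hold the core of the interferon-stimulated response element and belong to genes whose differences from WT were unlike. They run from 250 bases before to 50 after the start of transcription, on the minus strand of GRCm38 (RefSeq), with each match to GAAA, any 2 bases and GAAA (TTTC, any 2 bases and TTTC on the other strand) in capitals; overlapping matches run together. They were chosen after their values were seen, as the 3 largest decreases and the 2 largest increases with a match.
Ifitm3, chr7:141010695-141010994: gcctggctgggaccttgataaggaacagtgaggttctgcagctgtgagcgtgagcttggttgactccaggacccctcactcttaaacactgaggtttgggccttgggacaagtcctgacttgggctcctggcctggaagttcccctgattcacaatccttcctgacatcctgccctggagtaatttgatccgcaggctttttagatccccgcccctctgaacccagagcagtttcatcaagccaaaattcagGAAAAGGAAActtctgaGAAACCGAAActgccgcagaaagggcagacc
H2-T23, chr17:36032652-36032951: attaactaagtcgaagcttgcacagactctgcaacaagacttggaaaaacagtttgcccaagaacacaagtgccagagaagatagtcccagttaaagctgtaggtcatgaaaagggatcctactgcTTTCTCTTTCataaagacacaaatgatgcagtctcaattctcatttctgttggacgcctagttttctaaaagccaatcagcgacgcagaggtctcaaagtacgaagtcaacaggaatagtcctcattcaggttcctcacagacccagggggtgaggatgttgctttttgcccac
Bst2, chr8:71537423-71537722: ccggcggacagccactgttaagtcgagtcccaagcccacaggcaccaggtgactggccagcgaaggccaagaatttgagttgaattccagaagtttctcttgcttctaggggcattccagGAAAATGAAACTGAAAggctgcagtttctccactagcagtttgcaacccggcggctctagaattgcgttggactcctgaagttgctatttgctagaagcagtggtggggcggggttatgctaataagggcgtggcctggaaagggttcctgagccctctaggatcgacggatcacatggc
Isg15, chr4:156200769-156201068: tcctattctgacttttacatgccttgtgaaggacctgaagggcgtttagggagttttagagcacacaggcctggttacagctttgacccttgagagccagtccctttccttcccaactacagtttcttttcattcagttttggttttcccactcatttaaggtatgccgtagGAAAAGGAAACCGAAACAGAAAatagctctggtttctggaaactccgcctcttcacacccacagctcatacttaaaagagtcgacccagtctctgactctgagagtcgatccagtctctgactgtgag
Eif2ak2, chr17:78882523-78882822: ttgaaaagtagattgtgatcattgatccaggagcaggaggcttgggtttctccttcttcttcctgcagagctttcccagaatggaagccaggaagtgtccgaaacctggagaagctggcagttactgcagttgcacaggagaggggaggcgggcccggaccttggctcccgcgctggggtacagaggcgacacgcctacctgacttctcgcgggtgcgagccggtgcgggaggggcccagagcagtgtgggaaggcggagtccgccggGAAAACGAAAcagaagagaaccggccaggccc

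The first 3 belong to genes below WT, with differences of -1.38, -1.14 and -1.02. Isg15 and Eif2ak2 (the RNA-activated kinase PKR) stood at 0.30 and 0.24, within 1.5-fold of WT. The motif was found in 13 of 27 interferon promoters (48.1%) and 5 of 18 class I promoters (27.8%), against 320 (3.41%) of the 9390 member genes with a promoter entry of the same length. Interferon genes with and without it had median differences of -0.33 and -0.27. A match describes the letters only.

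Microglial genes showed a mixed picture. Fcrls, a scavenger-receptor-like gene of resident microglia, stood at 3.18 (WT), 23.7 (PS19) and 11.2 (PS19 Zbp1+/-), and Cx3cr1, the fractalkine receptor, at 4.08, 22.1 and 10.8. Both were 2-fold above WT and stood below PS19. P2ry12, the ADP receptor, was at 11.2, 10.1 and 8.66, and Tmem119 at 11.02, 12.4 and 10.2, so these markers lay close together in all libraries. Of 19 passing homeostatic genes 2 were 2-fold higher and 0 lower, beside 1.0% and 2.28% of all genes. Of these 19, 1 passed through WT alone and 1 through PS19 Zbp1+/- alone. The median was 0.20 (PS19 minus WT 0.72).

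Genes of disease-associated microglia stood in both directions, more of them below WT than above. Trem2, the lipid-sensing receptor, stood at 2.41 (WT), 12.5 (PS19) and 2.93 (PS19 Zbp1+/-), and its adaptor Tyrobp at 11.4, 50.5 and 10.8. Trem2 was counted with the homeostatic list and Tyrobp with the disease-associated list. Spp1 (osteopontin) was at 7.03, 13.8 and 1.38 and lysozyme Lyz2 at 9.91, 52.8 and 2.45, both 2-fold below WT. Lyz2 has a near-identical copy. Itgax and Cst7, both under the filter, had 14, 602 and 5 and 12, 248 and 0 reads. The list held 20 passing genes, of which 2 were 2-fold lower and 0 higher (2.28% and 1.0% of all genes). At 1.5-fold 7 were lower and 1 was higher, beside 7.26% and 6.80% of all genes. The higher gene was Timp2, a metalloproteinase inhibitor, at 89.1, 86.3 and 156. The list had a median of -0.18 (PS19 minus WT 1.15).

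Complement genes stood in both directions. The 3 chains of C1q, the initiator of the classical pathway, lay within 1.5-fold of WT: C1qa at 48.0, 205 and 39.4, C1qb at 35.1, 154 and 39.7, and C1qc at 17.4, 75.0 and 18.2. C4b, which has a near-identical copy, was at 11.01 (WT), 132 (PS19) and 17.0 (PS19 Zbp1+/-). Several inhibitors were lower. Cd59a, which blocks the membrane attack complex, was at 7.94, 5.75 and 1.36, and Serping1, the C1 inhibitor, at 5.31, 11.8 and 1.14. Csmd2, a membrane protein with complement-regulatory domains, was higher at 3.07, 3.30 and 5.56. Serping1 is also on the meningeal list, and the part of meninges in these values was not tested. Of 12 passing complement genes, 2 of them through WT alone, 2 were 2-fold lower and 0 higher, beside 2.28% and 1.0% of all genes. Their median was -0.11, and its sign changed under 3 of 14 alternatives.

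Reactive astrocyte genes stood on both sides of WT, and their most abundant member lay close to it. Gfap, the intermediate filament of astrocytes, stood at 98.4 (WT), 768 (PS19) and 112 (PS19 Zbp1+/-). Serpina3n, a serine protease inhibitor, was at 21.8, 157 and 26.8, and vimentin (Vim) at 12.6, 61.5 and 8.54. Aspg was at 1.02, 9.89 and 2.28, above WT and under PS19. Of 16 passing genes, 4 of them through WT alone, 1 (Serping1) was 2-fold lower, 4 were 1.5-fold lower and 2 were 1.5-fold higher, beside 2.28%, 7.26% and 6.80% of all genes. Among the lower ones, named after their values were seen, were Srgn, a proteoglycan of secretory granules, at 3.25, 5.40 and 1.52 and the guanylate-binding protein gene Gbp2 at 1.36, 6.62 and 0.477. The median was -0.22 (PS19 minus WT 1.26) and -0.41 with the correction for GC content and length. Homeostatic astrocyte genes such as Slc1a2, the glutamate transporter, at 140, 210 and 164, had 0 of 28 past 2-fold and a median of 0.09.

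On the log2(FPKM + 1) scale the genes of Z-RNA sensing and necroptosis that passed the filter lay within 1.5-fold of WT. The core kinases were too weakly expressed to pass. Adar, the RNA-editing enzyme that limits Z-RNA, was at 14.6 (WT), 17.5 (PS19) and 21.9 (PS19 Zbp1+/-). Ripk1 had 94, 148 and 59 reads, Ripk3 7, 19 and 2, and Mlkl 3, 7 and 0, and all were under the FPKM filter. At this depth the interval of the ratio to WT ran from 0.0316 to 1.64 for Ripk3 and up to 2.64 for Mlkl. Casp8, the protease that restrains necroptosis, had 42, 114 and 18 reads, a ratio to WT of 0.467 (0.253 to 0.829). Of 18 listed genes 10 passed, with 0 past 1.5-fold and a median of -0.05.

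**Figure D3:**
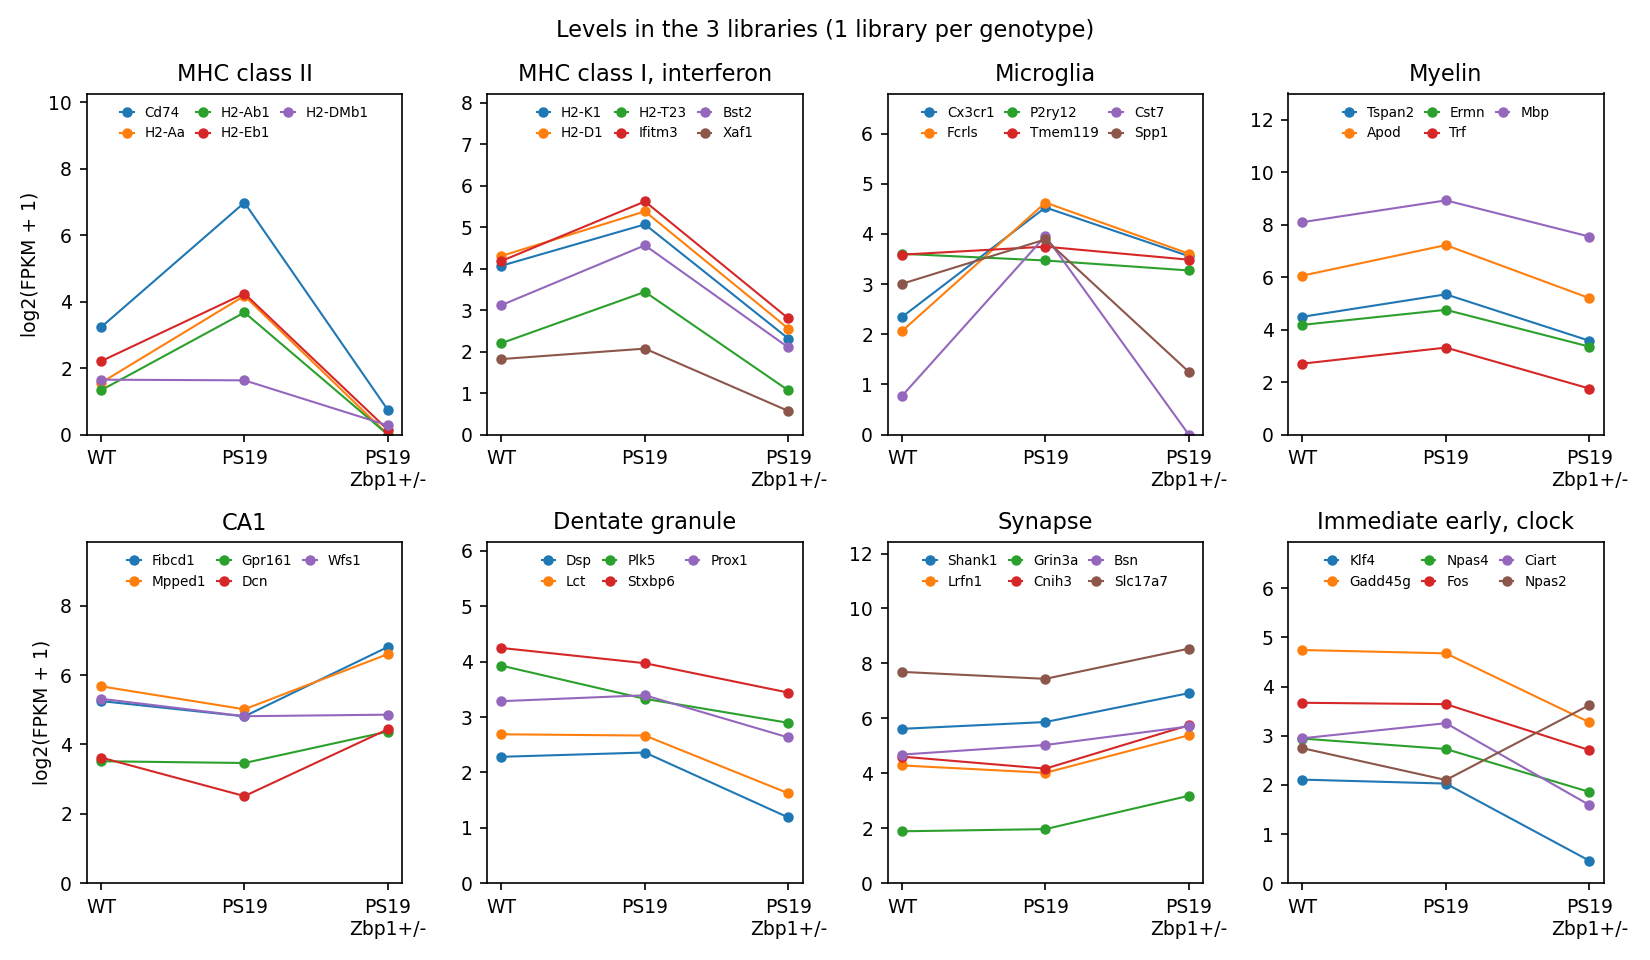
Log2(FPKM + 1) of named genes in the 3 libraries, 1 panel per gene group; each point is 1 library and the lines join values of the same gene. MHC class II genes such as Cd74 are high in PS19 and low in PS19 Zbp1+/-, myelin genes are also lowest in PS19 Zbp1+/-, while Fibcd1 and Shank1 are highest there.

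Most myelin genes, 23 of the 27 that passed the filter, were below WT by moderate amounts, beside 5864 of 11992 among all members. Mbp, myelin basic protein, stood at an FPKM of 272 (WT), 484 (PS19) and 185 (PS19 Zbp1+/-). Mobp was at 102, 179 and 65.9, and Apod at 65.5, 148 and 35.8. Tspan2, a tetraspanin of oligodendrocytes, was at 21.5, 39.6 and 10.9. For each of these 4 genes PS19 Zbp1+/- was lowest and PS19 highest. All 27 passing genes were at FPKM 1 or more in both libraries, 0 passed 2-fold in either direction, and 13 were 1.5-fold lower with 0 higher, beside 7.26% and 6.80% of all genes. The 4 genes above WT were Myrf, Plekhh1, Sox10 and Gal3st1, named after their values were seen, with differences of 0.02 to 0.18. The median was -0.55 (PS19 minus WT 0.78) and stayed between -0.71 and -0.46 under 14 alternatives. Precursor cell genes had a median of 0.16 over 14 genes, with Bmp4, a growth factor, at 1.68, 1.54 and 0.197 and Tnr, a matrix glycoprotein with a near-identical copy, at 8.73, 12.9 and 18.4.

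Markers of the hippocampal fields stood in different directions. Fibcd1 (GRCm38 chromosome 2, 31813290 to 31846005), a marker of dorsal CA1 pyramidal neurons, stood at an FPKM of 37.0 (WT), 27.0 (PS19) and 111 (PS19 Zbp1+/-), a ratio to WT of 3.003 (2.88 to 3.13). Mpped1 was at 50.1, 31.3 and 96.3, and Gpr161, a receptor of the primary cilium, at 10.4, 10.0 and 19.7. Wfs1, the classical CA1 marker of the endoplasmic reticulum, did not follow at 38.8, 27.1 and 28.0, and Spink8 was at 20.97, 14.7 and 11.4. Of 13 CA1 genes 1 was 2-fold higher, 6 were 1.5-fold higher and 1 was 1.5-fold lower, beside 1.0%, 6.80% and 7.26% of all genes. Their median was 0.54, against -0.44 for PS19 minus WT, and lay between 0.39 and 0.78 under 14 alternatives.

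Several dentate granule markers were lower. Dsp, the junction protein desmoplakin, stood at 3.86 (WT), 4.13 (PS19) and 1.28 (PS19 Zbp1+/-). Lct was at 5.45, 5.35 and 2.08, and the polo-like kinase gene Plk5 at 14.2, 9.05 and 6.44. Prox1, the transcription factor that specifies granule cells, was at 8.76, 9.51 and 5.20. Of 21 passing genes 3 were 2-fold lower, 8 were 1.5-fold lower and 0 were higher at either threshold, beside 2.28% and 7.26% of all genes lower. The median was -0.43 (PS19 minus WT -0.26). CA3 and CA2 genes had a median of -0.02 whose sign changed under 4 of 14 alternatives, with Prkcd at 8.15, 23.1 and 1.69, Pcp4 at 14.5, 14.2 and 4.68 and Coch at 3.40, 3.57 and 1.18. Prkcd is also a thalamic marker, and Zic1, a transcription factor of septal, thalamic and meningeal cells, was at 9.81, 11.1 and 0.732. Of 16 passing genes of neighbouring regions 2 (Prkcd and Zic1) were 2-fold lower, beside 2.28% of all genes. Of the 16, 1 (Zic1) passed through WT alone and 2 through PS19 Zbp1+/- alone. What share of these values came from the cut of the tissue was not tested.

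Synaptic genes were moderately higher. Shank1, a scaffold of the postsynaptic density, stood at an FPKM of 48.1 (WT), 57.3 (PS19) and 120 (PS19 Zbp1+/-). Lrfn1, a synaptic adhesion molecule, was at 18.5, 15.2 and 40.7. Dlg4, which encodes PSD-95, differed less at 57.5, 44.9 and 75.3. Among 34 postsynaptic genes 2 were 2-fold higher, 13 were 1.5-fold higher and 0 were lower at either threshold, beside 1.0% and 6.80% of all genes higher. The list had a median of 0.39 (PS19 minus WT 0.01).

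The glutamate receptor list had 2 genes 2-fold higher of 27, beside 1.0% of all genes. Grin3a, a modulatory NMDA receptor subunit, was at 2.70 (WT), 2.91 (PS19) and 8.07 (PS19 Zbp1+/-), and the AMPA receptor auxiliary subunit Cnih3 at 23.4, 17.0 and 52.8. Gria1, the major AMPA subunit, was at 131, 134 and 185 and Gria2 at 48.1, 44.6 and 44.9. On the presynaptic side Bsn (bassoon, an active zone scaffold) was at 24.7, 31.6 and 51.2, the vesicular glutamate transporter gene Slc17a7 at 206, 172 and 371, and Snap25 at 234, 180 and 197. The medians were 0.33 for glutamate receptors and 0.35 over 27 presynaptic genes. Potassium channels had a median of 0.36 over 37 genes, with 13 of them 1.5-fold higher (6.80% of all genes), among them Kcnf1 at 14.7, 11.3 and 31.0.

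Some receptors for modulatory transmitters were among the higher genes. These families were chosen after values were seen and are given as a description. At 2-fold 2 of 21 monoamine, 3 of 10 cholinergic, 3 of 4 somatostatin and 2 of 13 GABA receptor genes were higher, beside 1.0% of all genes, and 0 were lower. The 13 GABA receptor genes included 5 below WT, and their median of 0.18 changed sign under 1 of 14 alternatives. The cholinergic genes included 3 below WT. Hrh3, the presynaptic histamine receptor, stood at 19.97 (WT), 18.3 (PS19) and 58.4 (PS19 Zbp1+/-), and Htr6, a serotonin receptor, at 2.60, 2.62 and 7.64. Chrm5, a muscarinic receptor, was at 1.16, 1.01 and 6.44, and Chrna7, the alpha-7 nicotinic subunit, at 3.80, 5.21 and 10.4. The somatostatin receptors that were 2-fold higher were Sstr1, Sstr3 and Sstr4, with Sstr4 at 10.6, 13.1 and 27.4. Gabra2, a GABA-A receptor subunit, was at 13.2, 9.91 and 37.0. Nos1, neuronal nitric oxide synthase, was at 6.74, 7.16 and 22.3. Interneuron markers as a group had a median of 0.15 over 23 genes with 0 past 2-fold, with Lhx6 at 3.75, 3.78 and 8.31 and Npy at 66.6, 46.8 and 39.1.

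These neuronal medians stood on a background trend with base composition. Across genes the difference from WT increased with the GC content of the transcript, with Spearman's rho of 0.32 over 11987 genes that share both libraries. The corresponding value for PS19 minus WT was -0.04. The median difference was -0.21 in the lowest of 10 bins of GC content and 0.21 in the highest. After subtracting the median of genes of like GC content and length, the median was 0.26 for the postsynaptic list, 0.19 for the presynaptic list, 0.20 for potassium channels and 0.47 for CA1 genes, with the same sign in each. Chromatin regulators, such as Chd3 at 74.8 (WT), 67.5 (PS19) and 136 (PS19 Zbp1+/-), went from a median of 0.41 over 34 genes to 0.07. Under this correction Shank1 (0.74), Bsn (0.46) and Lrfn1 (0.79) no longer reached 2-fold. What produced the GC trend was not tested. With scaling by total reads the medians were 0.24 (postsynaptic), 0.23 (glutamate receptors), 0.19 (presynaptic) and 0.25 (potassium channels). That scaling put the median of all genes at -0.12, and Bsn, Lrfn1, Kcnf1 and Cnih3 no longer reached 2-fold under it.

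**Figure D4:**
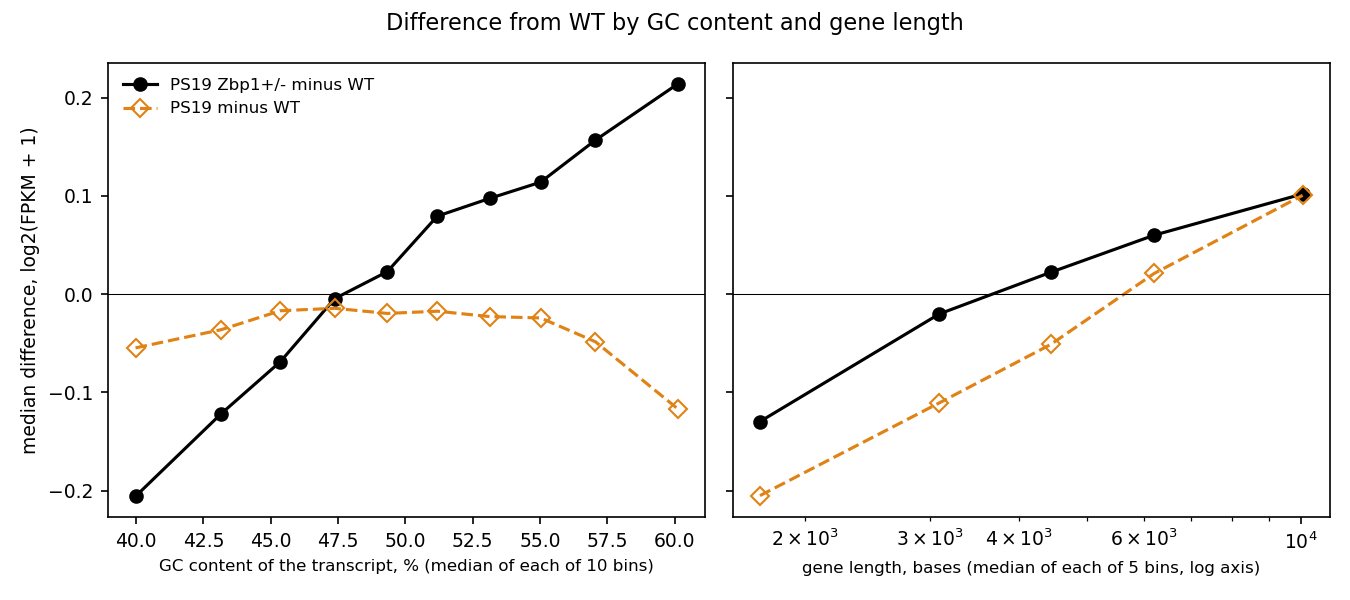
Median difference from WT in log2(FPKM + 1) by bins of transcript GC content (left, 10 bins) and of gene length (right, 5 bins, log axis), placed at each bin's median. PS19 Zbp1+/- minus WT (filled circles) climbs with GC from -0.21 to 0.21 and PS19 minus WT (open diamonds) does not, whereas both climb with length.

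Immediate early genes, which neurons transcribe within minutes of activity, were below WT in 25 of the 34 that passed. Among all members 5864 of 11992 were below WT. Npas4 stood at an FPKM of 6.69 (WT), 5.63 (PS19) and 2.62 (PS19 Zbp1+/-), Fos at 11.7, 11.5 and 5.53, and Gadd45g at 25.8, 24.6 and 8.67. Nptx2, which clusters AMPA receptors, went the other way at 12.8, 9.97 and 25.2. Arc was at 56.3, 42.4 and 46.4 and Egr1 at 44.1, 34.4 and 34.4, so that PS19 lay at least as far from WT as PS19 Zbp1+/- did for these genes. Of 34 passing genes 3 were 2-fold lower, 8 were 1.5-fold lower and 1 was 1.5-fold higher, beside 2.28% and 7.26% of all genes lower and 6.80% higher. Of the 34, 2 passed through WT alone and 1 through PS19 Zbp1+/- alone. Klf4, 2-fold lower at 3.31, 3.07 and 0.373, was among those that passed through WT alone. The median was -0.29 (PS19 minus WT -0.28), and -0.44 with the correction for GC content and length. The cyclic AMP response element TGACGTCA was found in 3 of 26 promoters of these genes (11.5%), against 3.64% of all.

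Among 18 passing genes of the glucocorticoid response 3 were 2-fold lower, beside 2.28% of all genes. Sgk1, a kinase induced by glucocorticoids, stood at 45.0 (WT), 56.7 (PS19) and 12.9 (PS19 Zbp1+/-). Pdk4, which restrains pyruvate oxidation, was at 6.74, 7.25 and 1.87, and Plin4, a lipid droplet protein, at 1.95, 11.6 and 0.427. Plin4 is 1 of 3 genes of the list that passed through WT alone and could only be lower. The glucocorticoid receptor gene Nr3c1 was level at 10.3, 11.8 and 9.56. The list's median was -0.29. Txnip, a glucose-responsive inhibitor of thioredoxin named after its values were seen, was at 15.1, 18.5 and 2.67. Clock genes stood in both directions, with Npas2 at 5.71, 3.28 and 11.3, Ciart at 6.72, 8.54 and 2.01 and Nr1d2 at 23.4, 24.2 and 11.4. Their median was 0.00 and its sign changed under 5 of 14 alternatives. Chaperone genes had 0 of 25 past 2-fold and a median of -0.18, with the endoplasmic reticulum chaperone Hspa5 at 79.9, 59.2 and 50.04.

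Several of the largest differences fell on genes with near-identical copies, whose reads could have been shared out differently in each library. Rps2, a ribosomal protein gene, stood at 144 (WT), 61.4 (PS19) and 5.97 (PS19 Zbp1+/-), while its processed pseudogene Rps2-ps10 had 38, 1248 and 3591 reads. Rps3a1 was at 51.8, 263 and 303, and Hmga1b at 1.14, 9.04 and 25.3. Atp6v0c was at 45.0, 21.4 and 4.24, and Atp6v0c-ps2 had 42, 1785 and 5524 reads. Levels of these genes are uncertain. Of 75 ribosomal protein genes 57 have such a copy, and the list had a median of -0.05. In it 1 gene was 2-fold higher and 4 were lower, beside 1.0% and 2.28% of all genes. Among genes without one, the largest increases were those of Chrm5, Ly6g6e (15, 12 and 90 reads), Pde11a, a cyclic nucleotide phosphodiesterase (1.46, 1.72 and 6.58), Hs6st3, which sulfates heparan sulfate (4.72, 6.27 and 16.2), Nos1 and Fibcd1.

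In the imprinted Dlk1-Dio3 domain, Dlk1, a Notch-pathway ligand, stood at 2.64 (WT), 2.25 (PS19) and 8.89 (PS19 Zbp1+/-), and Dio3, which inactivates thyroid hormone, at 3.91, 1.20 and 13.01. Rtl1 of the same domain was at 1.46, 0.701 and 1.43. Dlk1 and Dio3 were thus 2-fold higher and Rtl1 was level with WT. Nuclear genes of the respiratory chain had a median of -0.23 over 71 genes, with 11 of them 1.5-fold lower (7.26% of all genes), 0 higher and 0 past 2-fold. The median was -0.14 with the correction for GC content and length, and that of PS19 minus WT was -0.41. Cox7c, which has a near-identical copy, was at 96.1, 58.8 and 50.7 and Uqcr11 at 119, 80.9 and 61.5. Tau-related and neurofilament genes had a median of 0.19 over 17 genes, and of 0.06 with the correction for GC content and length. Among them the microtubule-associated gene Map1a was at 84.9, 108 and 164 and Ina, an intermediate filament gene of axons, at 48.5, 50.4 and 82.5. Replication-dependent histone genes had a median of -0.24 over 7 genes. Genes of adult neurogenesis and of cholesterol synthesis had medians of 0.15 and 0.10 with 0 past 2-fold, and 0 of 18 lymphocyte genes passed the filter.

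**Figure D5:**
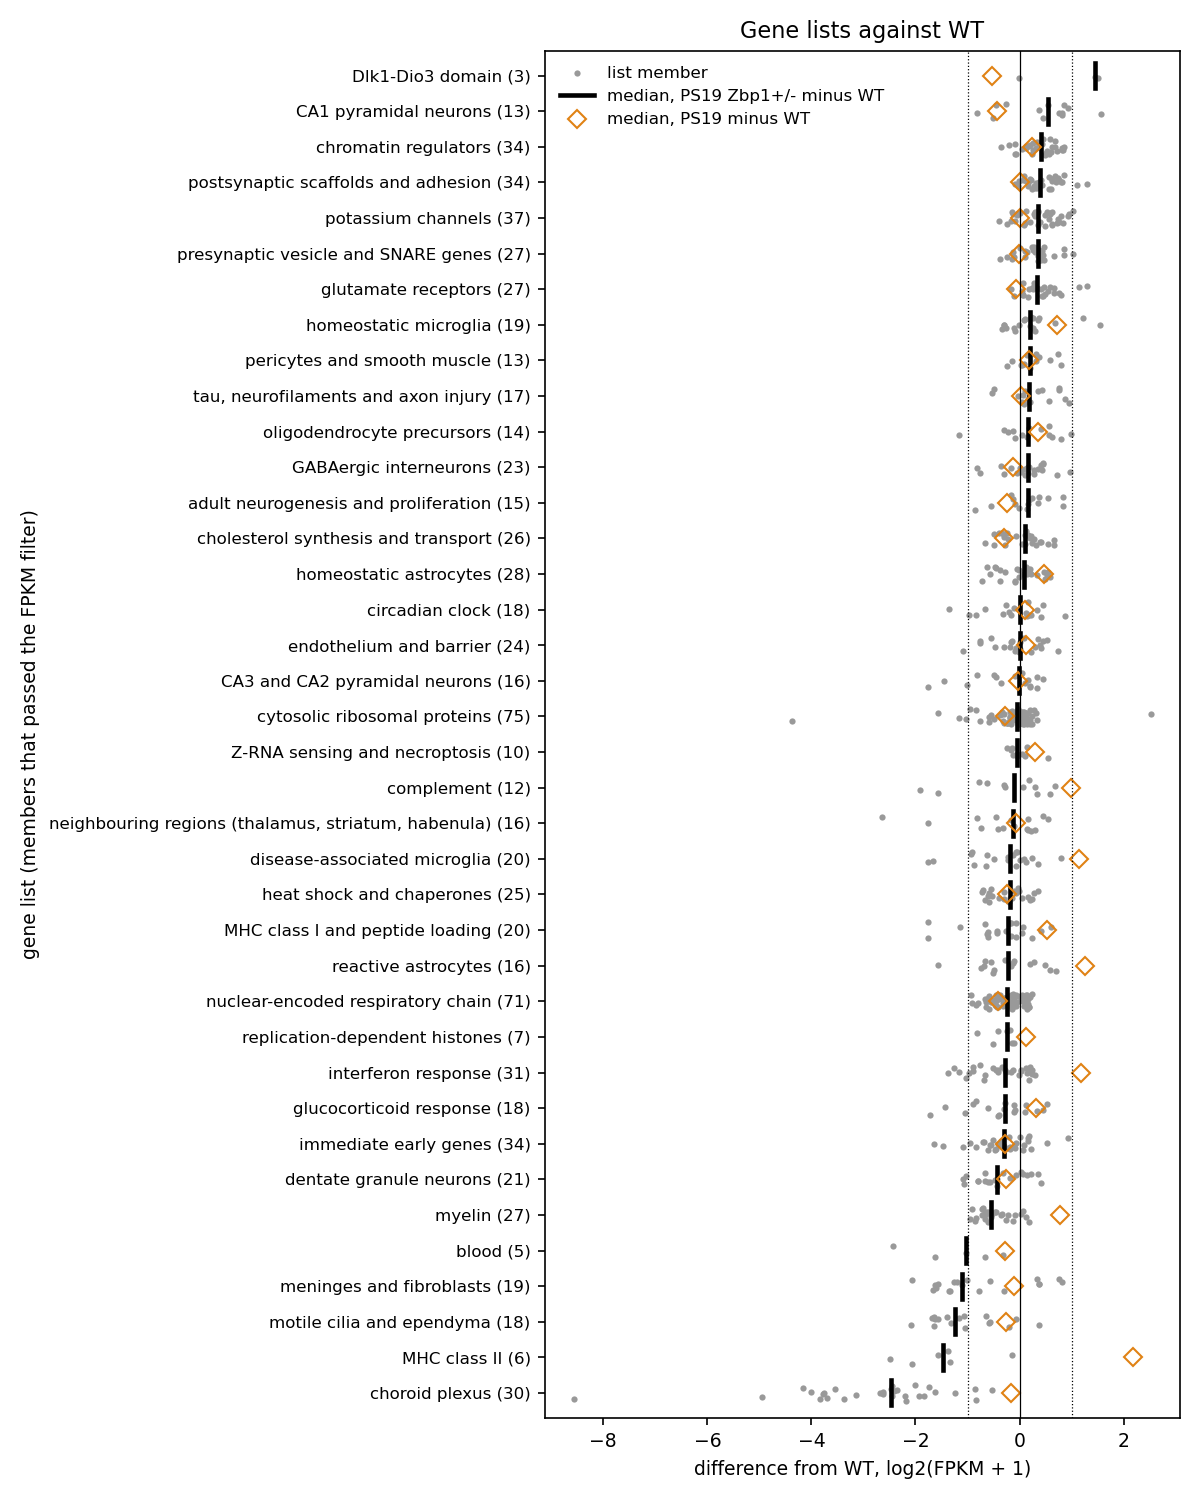
Difference from WT in log2(FPKM + 1) for each passing gene (grey points) of every list with a passing gene, ordered by the median of PS19 Zbp1+/- minus WT (black bars), with the median of PS19 minus WT as open diamonds and dotted lines at 2-fold. The choroid plexus list lies lowest at -2.46, and for MHC class II, myelin, interferon and disease-associated microglia genes the 2 medians lie on opposite sides of 0.

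By chromosome the lower genes were widespread, from all 19 autosomes, and the higher genes from 18 of them. Shares of lower genes ran from 1.19% on chromosome 14 to 3.44% on chromosome 3 and 4.01% on chromosome 17, which carries the mouse MHC, beside 2.28% of all genes. Shares of higher genes ran from 0 on chromosome 6 to 2.70% on chromosome 12, beside 1.0% of all genes. At the 2-fold line, Cacna1g, a T-type calcium channel gene at 8.38 in WT and 17.8 in PS19 Zbp1+/-, and Dnase1 were just inside for higher genes, and Snph and Hspb3 just outside. Cdh19 and Ttc21a were just inside for lower genes, and Ftl1 and Gm28729 just outside. At the FPKM minimum Cdkn2b and Rasl12 were just inside, and A4galt and Pmf1 just outside at 0.999.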

How the data were processed

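Total RNA of hippocampus, extracted with TRIzol, was made into libraries with an NEB Next Ultra RNA kit, per the labels' protocols. Trim Galore 0.6.5, STAR 2.5.3a, featureCounts 2.0.4 and build mm39 are named per the submitters' processing notes. Gene positions in the table equal those of GRCm38 (GENCODE M21) for 53499 of 54409 gene IDs found there (98.3%), so positions are given as GRCm38. Annotation release and strandedness are not given in the sources used here, so antisense and overlapping genes may share reads.

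The authors deposited 1 table of FPKM values with a column per library. FPKM times gene length was a whole multiple of 1 step (tolerance 0.05 reads) in 100% of values, which gave reads and implied library sizes of 17253479 for WT, 17287957 for PS19 and 15826984 for PS19 Zbp1+/-. Differences are of log2(FPKM + 1) from the deposited values. Calls used 2-fold (1 log2 unit) and 1.5-fold (0.58). Read ratios are per library size with exact (Clopper-Pearson) 95% intervals; they cover counting error only, since without molecular identifiers reads are not separate molecules. For a ratio with 0 reads in PS19 Zbp1+/-, the upper limit of its interval is given. In the flagged results WT was set to no fewer than 3 reads.

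The members and the 39 lists (1014 genes) were chosen with earlier results of these data known. The 4 receptor families and the genes said to be so were chosen after values were seen. So were other named genes, among them Klf2, Lars2, Calb2, Grp, Itgax, Cst7 and Ifit1. Named genes were the genes tied to the design, the 12 largest increases and 12 largest decreases with at least 50 reads over both libraries, up to 4 per list and direction past 0.58, all genes of lists of 10 or fewer, and those next to a threshold; genes close to WT were added for comparison. Comparisons of PS19 and of PS19 Zbp1+/- with WT share the WT library, so their values are set side by side only. Copies were sought with BLAST 2.17.0 (90% identity, at least 200 bases and 50% of the shorter transcript). Alternatives covered the pseudocount, filter, scaling, gene set, composition, read limit and threshold. Some genes are not reported here. The procedure was tested on simulated data. Software was scipy 1.17.1, pandas 2.3.3 and numpy 2.4.6 under Python 3.11.15, with matplotlib 3.10.9 for plots.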

Additional observations from a re-analysis of the deposited data

Results flagged for a closer look

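Outside the members, 16 genes had at least 50 reads in PS19 Zbp1+/- and at least 8 times the WT reads per library size, with WT set to no fewer than 3 reads. Of the Y-linked genes, Ddx3y (711 reads in PS19 Zbp1+/-) stood at 258 times a level of 3 reads in WT. Eif2s3y (495 reads) stood at 180 times that level, Kdm5d (413 reads) at 150 times and Uty (268 reads) at 97.4 times. All 4 had 0 reads in both other libraries. Gm47283 on the Y chromosome and Gm21887 on the X chromosome had 1 and 2 reads in WT, and stood at 33.8 and 61.8 times a level of 3 reads.

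Processed and other pseudogenes made up a further group. Atp6v0c-ps2 stood at 143 times WT (reads 42 for WT, 1785 for PS19 and 5524 for PS19 Zbp1+/-), Rps2-ps10 at 103 times (38, 1248 and 3591), Tmem181c-ps at 77.7 times (7, 33 and 499), Gm9825 at 49.8 times (14, 250 and 639), Gm13443 at 32.7 times (7, 218 and 210) and Rbpj-ps3 at 13.4 times (7, 11 and 86). Gm6311, with 3, 47 and 130 reads, stood at 47.2 times a level of 3 reads. Ftl2-ps, with 1, 6 and 347 reads, stood at 126 times a level of 3 reads. Of the long noncoding RNAs, Gm26809 had 0, 99 and 119 reads and AC166110.4 had 1, 3 and 62. They stood at 43.2 and 22.5 times a level of 3 reads. The parent genes Atp6v0c and Rps2 were members and were lower than WT.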

How the results depend on the processing

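The counts moved with how low values and scale were treated. Higher genes numbered 120 and lower genes 273 as reported, 268 and 526 with a pseudocount of 0.1, 190 and 878 after rescaling to TPM, 390 and 556 over all biotypes, and 301 and 574 with a lower limit of 3 reads per library. Dividing by total reads left 68 higher genes, and a mean FPKM of at least 5 left 74 lower genes. At 1.5-fold the counts were 816 and 871, and at 4-fold 3 and 51. The other settings kept each count within 1.5 times. After seeing the data, leaving out the plexus, cilia and meninges lists was added and gave 120 higher and 223 lower genes. Of the list medians 1 changed its sign past 0.2 log2 units, that of the meningeal genes, to 0.36 with a mean FPKM of at least 5; the cause was not tested. No named gene past 1.5-fold changed direction under the alternatives run, though in 38 pairs of a gene and a setting a 2-fold call was lost. No paired analysis was possible because each genotype has 1 library, and for the same reason no replicate could be left out. Depth limits genes under about 10 reads, of which PS19 Zbp1+/- lost more than PS19 did.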

Other observations

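Transcripts of the mitochondrial genome, which lie outside the autosomes, stood in both directions from WT. The cytochrome oxidase gene mt-Co1 was at an FPKM of 8311 (WT), 7639 (PS19) and 12302 (PS19 Zbp1+/-), and the complex I gene mt-Nd5 at 1348, 1732 and 2898. The NADH dehydrogenase gene mt-Nd1 was at 4676, 3799 and 6418. mt-Co2, the second oxidase subunit, was lower than WT at 185, 108 and 124, and mt-Nd3 was level at 107, 77.1 and 107. Lars2, the nuclear gene of the mitochondrial leucyl-tRNA synthetase, was at 9.09, 5.87 and 20.9.

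Id1, Id3 and Id4, which encode inhibitors of basic helix-loop-helix factors and are targets of BMP signalling, were 2-fold lower in PS19 Zbp1+/-, and were named after their values were seen. Id1 was at 15.8 (WT), 17.1 (PS19) and 7.35 (PS19 Zbp1+/-), Id3 at 23.9, 32.1 and 9.88, and Id4 at 27.5, 33.9 and 12.0. Id2, the other member of the family that passed the filter, was at 28.3, 23.2 and 25.8. Klf2, a transcription factor of endothelium, was at 13.9, 11.9 and 5.78, and the adhesion molecule Vcam1 at 4.55, 5.56 and 1.53. With the correction for GC content and length Id1 (-0.925), Id4 (-0.95) and Vcam1 (-0.99) missed the 2-fold line.

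Calb2, Ntn5 and Grp stood low in PS19 and not in PS19 Zbp1+/-, as did Dcn, Nov and Dio3 above. Calb2 (calretinin) was at 31.2 (WT), 9.49 (PS19) and 34.8 (PS19 Zbp1+/-), and Ntn5 at 3.77, 0.835 and 6.33. Grp, a neuropeptide gene, was at 16.9, 6.34 and 36.6.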
